A study of Homo sapiens with 2 samples.

Results

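Translation factors are the proteins that load an mRNA and the initiator tRNA on the ribosome, move the ribosome along the message and free the finished chain. The set described here has 51 genes, sorted by the complex they belong to: eIF1 and eIF1A, eIF2 with its kinases, eIF2B, eIF3, eIF4F with its partners, the eIF5, eIF5A, eIF5B and eIF6 genes, the elongation factors and the release factors. Its probe sets were those for which the platform annotation gives a listed gene as the only symbol, which came to 125 probe sets for 46 genes, out of 41097 single-gene probe sets for 19775 genes on the array. The measured values played no part in that choice of probe sets, but the 51 genes were listed with earlier results of these data known.

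The cells were CL1-5, an invasive human lung adenocarcinoma line, in culture. The first array held RNA of cells exposed for 24 h to 0.11 µM analogue 3, a relative of the plant product desmosdumotin C that carries iodo, tripropyl and methoxy groups, at the concentration the submitters report as its ED50 in these cells. The second held RNA of cells kept for 24 h with the solvent DMSO at 0.05 µg/mL. With 1 array per group, and 1 cell line, no difference below has a replicate check, no test was possible, and a difference between the cultures or the hybridisations cannot be told apart from one due to the compound.

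Values are probe set intensities on a linear scale, as multiples of the array median, and differences are log2 of analogue 3 over DMSO. A floor of 32 was set under low values, and a gene was measured when at least 1 array reached it. Each gene was represented by its brightest probe set. Levels of different probe sets are not on a common scale, so only the same probe set was compared between arrays. Between different probe sets of a gene above the floor on both arrays, the SD of 1 probe set's log2 difference was 0.17, over 1127 genes, and over 20 of the translation factors it was also 0.17. For orientation, 13.1% of all probe sets on the array read the floor or more with analogue 3 and 13.4% with DMSO, and the rest lay under it. For the control probe sets of GAPDH, signal at the 3′ end over that at the 5′ end was 1.18 in treated cells and 1.21 in DMSO cells, and for those of ACTB it was 10.0 in treated cells and 11.8 in DMSO cells. The ACTB signal was thus far lower at the 5′ end on both arrays. Whether such a loss enters the differences between probe sets of 1 factor was not tested. Of the keratin and epithelial markers, KRT18 (457.9 with analogue 3 and 460.8 with DMSO) and KRT8 (77.8 and 42.3) were above the floor, whereas KRT7, KRT19, EPCAM and CDH1 were under it on both arrays. No marker of leukocytes, fibroblasts, endothelium or differentiated lung epithelium reached the floor.

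As background, the small ribosomal subunit binds eIF1, eIF1A, eIF3, eIF5 and the ternary complex of eIF2, GTP and initiator tRNA, and is brought to the capped end of the mRNA by eIF4F. It scans to the start codon, where eIF5 triggers GTP hydrolysis by eIF2, eIF5B joins the large subunit, and eIF2B recharges eIF2 with GTP for the next round. Stress kinases phosphorylate eIF2 and so block eIF2B, which lowers general protein synthesis while favouring a few messages such as ATF4, and mTORC1 acts on eIF4E through its binding proteins. In tumours, eIF4E is a well-known limiting factor for the translation of growth-promoting messages.

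The transcripts of the translation machinery were close to level between the arrays. By brightest probe set the highest differences were those of EIF4E (0.82) and EIF2B3 (0.76), and the lowest those of EIF2S2 (-0.48) and EIF2B2 (-0.42). Of the 41 measured genes, 21 lay above 0 and 20 below, with a median log2 difference of 0.00 (quartiles -0.09 and 0.33). None of the 41 was at least 2-fold higher, where the background over all 5050 measured genes was 3.47%, and none was at least 2-fold lower, where it was 2.67%. Over all measured genes the median was -0.01 (quartiles -0.28 and 0.26), with 2446 above 0 and 2599 below. Between 1.5-fold and 2-fold higher were 5 genes, EIF4E, EIF2B3, EIF5, EIF5A and EIF4E2, or 12.2% of the measured factors, beside 9.45% of all genes at least 1.5-fold higher. None was at least 1.5-fold lower, beside 9.13% of all genes. The 5 genes are thus a share near the background, and the count is not a result about the factors as a group. Within 1.5-fold lay 87.8% of the measured factors, beside 81.4% of all measured genes.

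**Figure D1:**
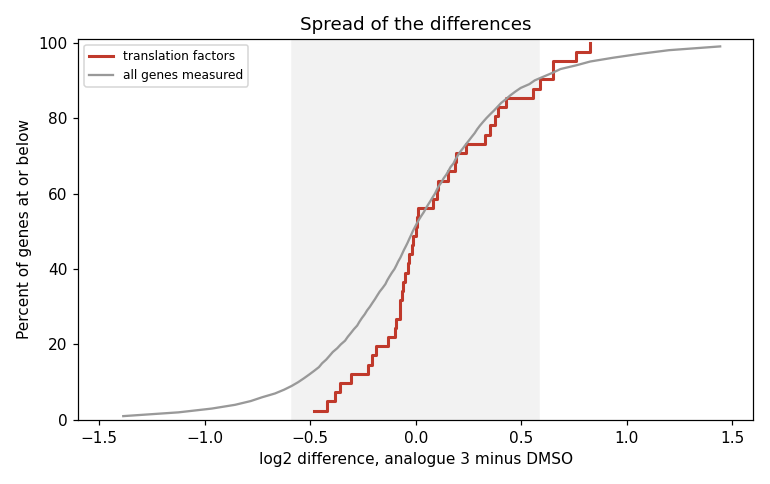
Cumulative percent of genes (vertical axis) against the log2 difference, analogue 3 minus DMSO (horizontal axis), for the 41 measured translation factors (red steps) and all 5050 measured genes (grey). Shading marks differences under 1.5-fold. The factors run from -0.48 to 0.82, and 5 lie right of the shading and none left of it.

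**Figure D2:**
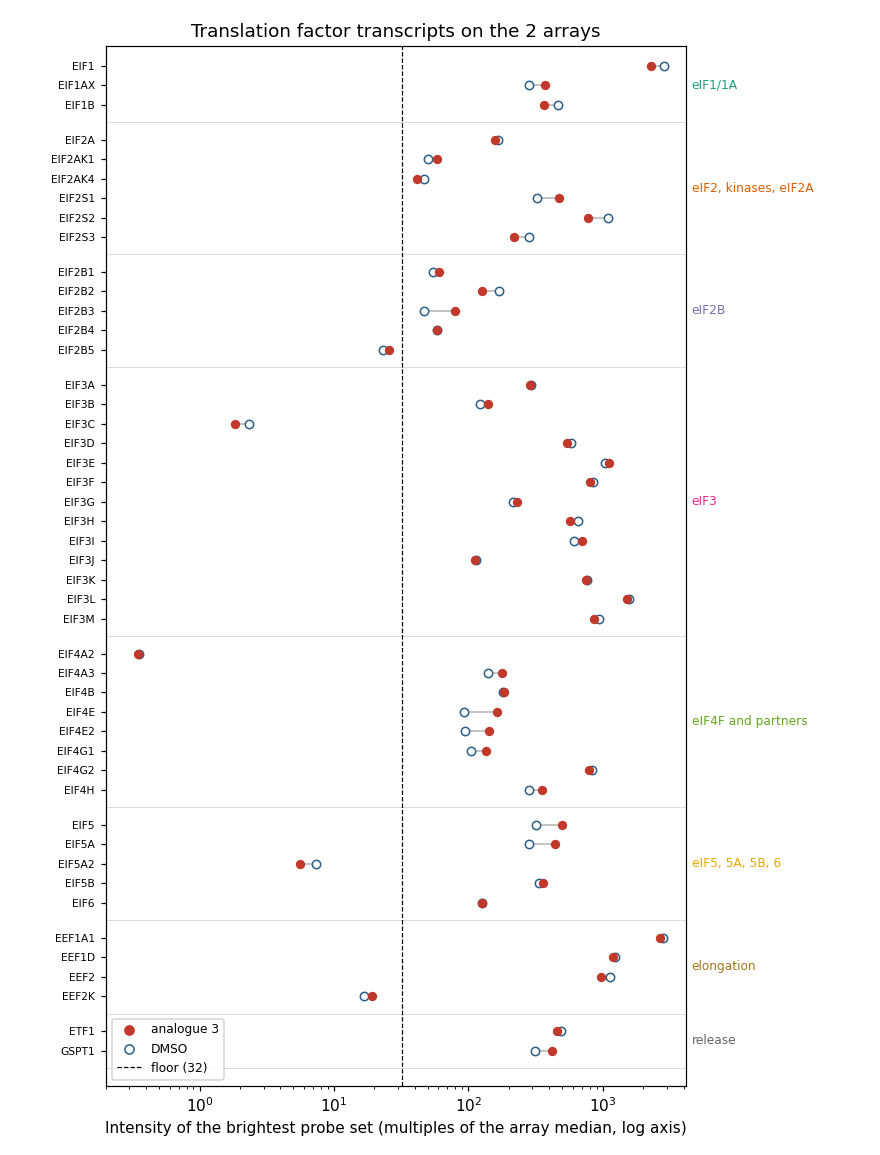
Intensity of each gene's brightest probe set (horizontal log axis, multiples of the array median) with analogue 3 (filled) and DMSO (open), 1 array each, by complex. The dashed line is the floor of 32. Most pairs nearly coincide, with EIF4E, EIF2B3, EIF5 and EIF5A shifted right with analogue 3, and 5 genes lie under the floor on both arrays.

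The factors that hold the scanning ribosome open were mixed. EIF1 encodes eIF1, which rejects poor start codons, and its brightest probe set read 2303 with analogue 3 and 2845 with DMSO, a log2 difference of -0.30. These values are near the top of the scale, since the highest probe set on the arrays read 3117 with analogue 3 and 3078 with DMSO. Its 3 other probe sets above the floor were dimmer and further apart. They read 670.9 against 1200, 694.8 against 1131, and 687.3 against 1123, with differences of -0.84, -0.70 and -0.71. EIF1 was thus lower with analogue 3 in 4 of 4 probe sets, by 1.24- to 1.79-fold. Its close paralogue EIF1B was lower too, at 364.9 with analogue 3 and 467.6 with DMSO (-0.36), and reads of the pair may be shared, since 3 of the EIF1 probe sets are of the x_at type, which can match other transcripts. EIF1AX, for eIF1A, which works with eIF1 in scanning, was on the other side at 369.6 with analogue 3 and 282.5 with DMSO (0.39). A second EIF1AX probe set read 275.9 against 165.7 (0.74), and the dimmest above the floor read 45.4 against 41.9 (0.12). All 3 were higher with analogue 3, by amounts that differ by 0.62 on the log2 scale.

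Of eIF2, the GTPase that carries the initiator tRNA, the subunits did not move as a block. EIF2S1 encodes the alpha subunit, the target of the stress kinases. It read 477.1 with analogue 3 and 324.5 with DMSO in its brightest probe set (0.56). The 2 dimmer ones read 82.2 against 79.5 (0.05) and 60.2 against 70.4 (-0.23). The probe sets disagree in sign, so no direction is given for EIF2S1. EIF2S2, the beta subunit, was the member with the lowest difference in a brightest probe set, at 780.3 with analogue 3 and 1090 with DMSO (-0.48). EIF2S3, the gamma subunit that binds GTP and tRNA, was lower in all 3 of its probe sets. They read 218.8 against 285.2, 170.1 against 217.5 and 42.3 against 57.3, with differences between -0.44 and -0.35. Of the kinases of eIF2 in the set, EIF2AK1, the haem-regulated kinase also used in mitochondrial stress, read 59.0 with analogue 3 and 50.05 with DMSO (0.24). EIF2AK4, the amino acid sensor GCN2, read 41.3 and 47.1 (-0.19). EIF2A, a separate factor that can deliver initiator tRNA without eIF2, read 158.3 and 166.5 (-0.07). By brightest probe set, that of EIF2S1 included, the median of these 6 genes was -0.13, with 2 above 0 and 4 below.

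eIF2B, the exchange factor that reloads eIF2, was divided as well. EIF2B3, the gamma subunit of its catalytic part, read 79.3 with analogue 3 and 46.8 with DMSO, a difference of 0.76 or 1.69-fold, in its only probe set. Of all measured genes, 6.02% had a difference as high. EIF2B2, the beta subunit, was lower, at 127.6 with analogue 3 and 170.6 with DMSO (-0.42), also from a single probe set. EIF2B1, the alpha subunit, read 60.3 and 54.2 (0.15), and EIF2B4, the delta subunit, read 58.4 and 58.1 (0.01), with -0.03 in its other probe set. EIF2B5, the catalytic epsilon subunit, did not reach the floor, with readings of 25.9 for analogue 3 and 23.0 for DMSO. The complex therefore had 1 subunit higher by more than 1.5-fold, and its median over 4 measured genes was 0.08.

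eIF3, the large scaffold that ties the mRNA and eIF4F to the small subunit, was level. By brightest probe set its 12 measured subunits lay between -0.21 and 0.19, with a median of -0.02, 4 above 0 and 8 below. EIF3L read 1529 with analogue 3 and 1562 with DMSO, and EIF3E read 1110 and 1050. EIF3M read 861.9 and 942.9, and EIF3F read 808.4 and 846.1. Of the rest, EIF3K read 749.7 and 759.5, EIF3I 700.9 and 616.0, and EIF3D 546.0 and 581.7. EIF3G read 232.3 and 216.4, and EIF3J, a loosely bound subunit, 113.1 and 114.3. The first 4 pairs each differed by less than 0.17 on the log2 scale, the SD of 1 probe set. The subunits at the ends of the range were EIF3H, at 567.3 with analogue 3 and 656.0 with DMSO (-0.21), and EIF3B, which carries the scaffold of the complex, at 139.8 and 122.4 (0.19). Further EIF3B probe sets gave 0.20 and 0.33. EIF3A, the largest subunit, had differences of -0.04 and 0.08 in 2 probe sets, and EIF3K had -0.02, 0.08 and 0.06 in 3, so neither has a direction. EIF3C, in the probe set that carries its symbol alone, read 1.83 and 2.33, far under the floor.

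The eIF4F group, which is the cap-binding complex with its partners and relatives, had the largest count of genes above 0. Of its 7 measured genes, EIF4E and EIF4G1 belong to eIF4F itself. Above 0 lay 6 of the 7, beside 2446 of all 5050 measured genes. EIF4B among the 6 was level (0.01) and kept its sign under 8 of 10 processing alternatives. The median was 0.35 and ran from 0.16 to 0.36 over the processing alternatives. In the eIF5 group, 4 of 4 measured genes lay above 0, with a median of 0.38. EIF6 among the 4 was level (0.002) and kept its sign under 6 of the 8 alternatives that gave it a value. EIF4E, the cap-binding protein itself, read 164.0 with analogue 3 and 92.6 with DMSO, a difference of 0.82 or 1.77-fold, and its second probe set read 78.1 against 42.4 (0.88). In a dimmer EIF4E probe set the analogue 3 array read 46.0 and the DMSO array 25.5, under the floor, a bound of at least 1.44-fold. The probe sets of EIF4E above the floor all stood higher with analogue 3, and 5.05% of measured genes had a difference as high as its brightest. EIF4E2, a related cap-binding protein that represses translation of its targets, read 143.3 with analogue 3 and 95.2 with DMSO (0.59, or 1.51-fold), and 52.6 against 35.9 in its second probe set (0.55). EIF4E2 thus sits just past the 1.5-fold line in the first probe set and just short of it in the second, and it was past that line under 4 of the 8 processing alternatives that gave it a value. It read 0.58 after loess removal, 0.55 after quantile normalization and 0.57 as a mean over its probe sets, on the log2 scale.

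The other 5 measured genes of the group differed by less, 4 above 0 and 1 below. EIF4G1, the main scaffold that joins eIF4E, eIF4A and eIF3, read 136.4 with analogue 3 and 105.2 with DMSO (0.37). EIF4A3, a helicase of the exon junction complex, read 178.7 and 140.2 (0.35), and EIF4H, a cofactor of the eIF4A helicase, read 352.7 and 281.1 (0.33). EIF4B, the other helicase cofactor, was level at 183.8 and 182.6 (0.01). EIF4G2, a scaffold homologue that lacks the eIF4E site, read 797.5 and 832.9 (-0.06). The single-gene probe set of EIF4A2 read 0.35 on both arrays. With the floor at log2 7, where DMSO readings under 128 are raised, the difference of EIF4E was a bound of 0.36 on the log2 scale and that of EIF4E2 a bound of 0.16. As a median over its probe sets, and without _s_at and _x_at probe sets, EIF4E took the value of its dimmer probe set (46.0 and 25.5). The DMSO reading there was under the floor, so the resulting 0.52 is a bound too. Without the floor that probe set gave 0.85.

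**Figure D3:**
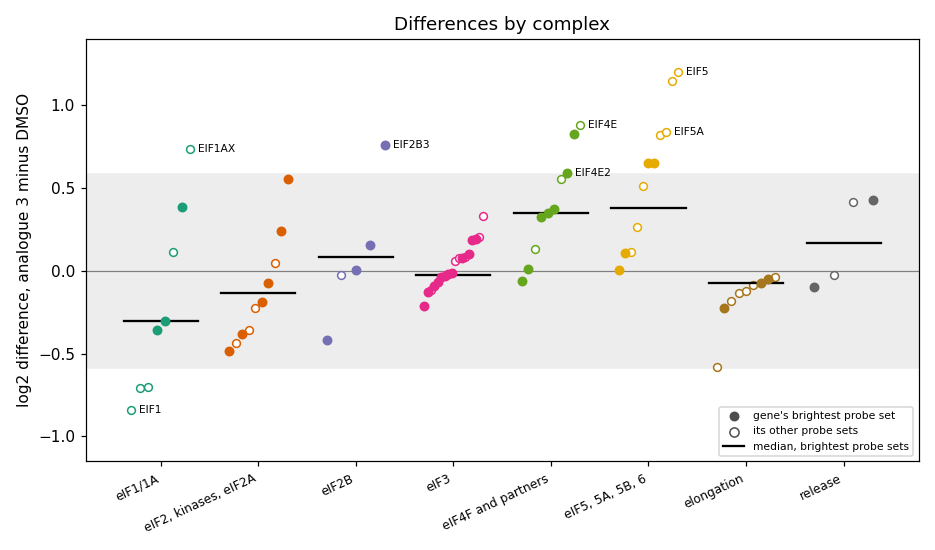
log2 difference, analogue 3 minus DMSO (vertical axis), of every probe set above the floor on both arrays, by complex. Filled points are each gene's brightest probe set, open points its other probe sets, bars the median of the brightest probe sets, and shading marks differences under 1.5-fold. The eIF3 points stay near 0, the eIF4F and eIF5 groups lie mostly above it, and EIF1 lies below.

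The promoters of 4 genes are printed to show 1 sequence feature that several factors share. Promoter sequences came from RefSeq (GRCh38.p14) for 43 of the 51 genes, and the 250 bases before the outermost start were searched on both strands for 4 motifs: the E-box CACGTG, bound by MYC and related factors, the C/EBP-ATF element TGATGNAA, the E2F sites TTTGGCGC or TTTCCCGC, and the ETS core CCGGAAG. The motifs do not overlap each other in the sequences shown, and capitals mark the E-box. EIF4E lies on chr4:98929134-98929383 (minus strand), EIF2B3 on chr1:44986596-44986845 (minus strand), EIF5 on chr14:103333987-103334236 (plus strand) and EIF1B on chr3:40309457-40309706 (plus strand). EIF4E and EIF2B3 are the genes with the highest differences, EIF5 is a gene that was higher but holds none of the motifs, and EIF1B holds the E-box but was lower.
EIF4E: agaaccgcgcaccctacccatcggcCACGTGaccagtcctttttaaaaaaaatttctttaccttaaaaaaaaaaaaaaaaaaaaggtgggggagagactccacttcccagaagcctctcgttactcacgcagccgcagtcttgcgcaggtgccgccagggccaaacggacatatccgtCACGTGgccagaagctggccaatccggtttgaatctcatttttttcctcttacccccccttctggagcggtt
EIF2B3: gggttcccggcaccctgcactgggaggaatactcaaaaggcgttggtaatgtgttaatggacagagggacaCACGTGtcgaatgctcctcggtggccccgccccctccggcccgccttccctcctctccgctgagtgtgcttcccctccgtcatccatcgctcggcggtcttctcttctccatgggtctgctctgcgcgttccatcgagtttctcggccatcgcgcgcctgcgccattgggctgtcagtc
EIF5: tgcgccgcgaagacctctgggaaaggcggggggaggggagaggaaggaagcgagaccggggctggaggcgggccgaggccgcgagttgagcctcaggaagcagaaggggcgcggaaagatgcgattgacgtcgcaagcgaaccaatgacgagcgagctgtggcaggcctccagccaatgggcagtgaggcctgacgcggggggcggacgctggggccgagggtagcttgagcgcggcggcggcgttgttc
EIF1B: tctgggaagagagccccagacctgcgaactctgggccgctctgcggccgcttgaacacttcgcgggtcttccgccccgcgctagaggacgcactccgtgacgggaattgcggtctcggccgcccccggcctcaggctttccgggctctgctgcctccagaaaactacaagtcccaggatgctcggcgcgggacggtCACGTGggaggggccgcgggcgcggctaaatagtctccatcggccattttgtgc

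In these windows EIF4E has the E-box at 225 and at 72 bases before the start, EIF2B3 at 179 and EIF1B at 54. The E-box was present in 11 of 43 factor promoters (25.6%), against 6.46% of all 27305 gene promoters, 7.80% of protein-coding ones and 9.62% of those of genes measured here. Of the 10 promoters of the eIF4F group, 5 had it: EIF4A3, EIF4B, EIF4E, EIF4G1 and EIF4H. The 9 measured factors with an E-box ran from -0.36 (EIF1B) to 0.82 (EIF4E) with a median of 0.33, 6 above 0 and 3 below. The 24 without one ran from -0.42 to 0.65 with a median of -0.01, 12 above 0 and 12 below. These medians are descriptions of 2 arrays, and both sets hold genes on either side of 0. Of the 9 genes with an E-box, 5 are the eIF4F group genes just named, so the contrast is not separate from that group's values. The motifs were chosen after values were seen, and a link between the E-box and the differences was not tested. The C/EBP-ATF element was in none of the 43 windows, against 3.19% of all promoters and 1.32% of those of genes measured here. The E2F sites were in 1 (2.33%), that of EEF1E1, against 1.96% of all promoters, 2.58% of protein-coding ones and 3.65% of those of genes measured here. The ETS core was in 9 (20.9%), against 8.78% of all promoters, 11.8% of protein-coding ones and 19.5% of those of genes measured here.

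EIF5 and EIF5A were higher in every probe set above the floor. EIF5 encodes the GTPase activator that commits eIF2 at the start codon, and read 499.4 with analogue 3 and 317.9 with DMSO in its brightest probe set, a difference of 0.65 or 1.57-fold. Its other probe sets read 308.6 against 134.4 (1.20), 170.8 against 77.1 (1.15) and 140.5 against 98.6 (0.51). All 4 were higher with analogue 3, by 1.43- to 2.30-fold. Among probe sets above the floor, the 2 past 2-fold were the only such ones of any factor in either direction. All 4 are of the _s_at or _x_at type, so EIF5 has no value when those types are left out. The probe set with the largest difference (1.20) is of the x_at type, which can match other transcripts. EIF5A encodes the hypusine-bearing factor that helps the ribosome through stretches such as polyproline. It read 445.6 with analogue 3 and 284.4 with DMSO (0.65, or 1.57-fold), 163.3 against 92.6 (0.82) and 93.9 against 52.6 (0.84), and so was higher in 3 of 3 probe sets, with 8.02% of measured genes as high as its brightest. Of the EIF5A probe sets, 2 are of the x_at type and may read near-identical copies, and the brightest is of the _s_at type. EIF5A2, its paralogue, was under the floor at 5.57 with analogue 3 and 7.34 with DMSO.

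The late initiation factors were level. EIF5B, which joins the large subunit, read 359.3 with analogue 3 and 333.8 with DMSO (0.11), with 0.26 and 0.11 in its other probe sets. EIF6, which keeps the ribosomal subunits apart and acts in ribosome assembly, read 126.9 and 126.7 (0.00).

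**Figure D4:**
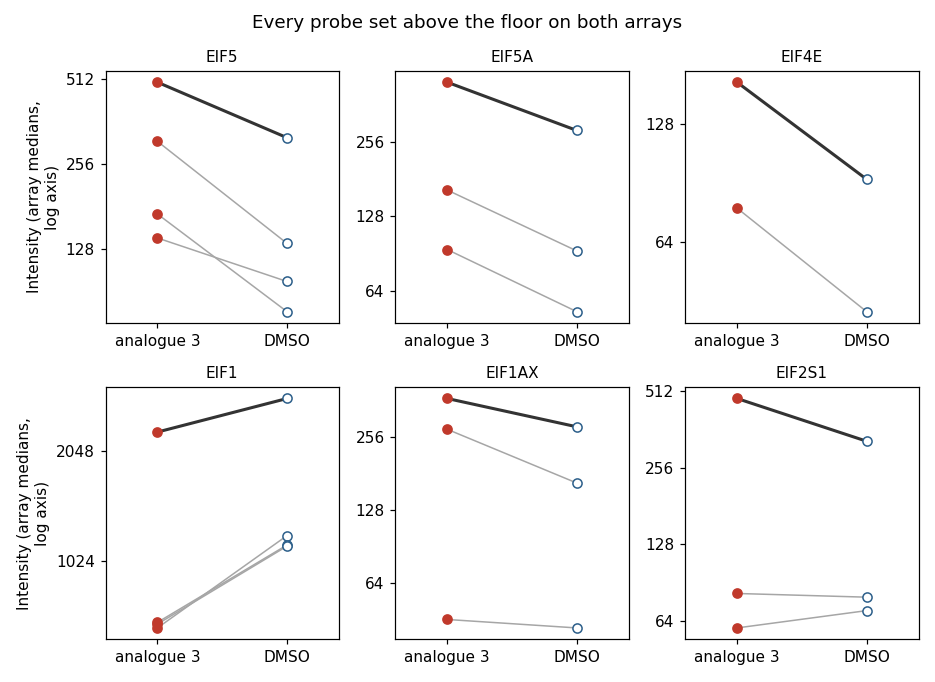
Intensity (vertical log axis, multiples of the array median) of every probe set above the floor on both arrays for 6 genes, with analogue 3 (left, filled) and DMSO (right, open), 1 array each. Heavy lines are the brightest probe sets. EIF5, EIF5A and EIF4E are higher with analogue 3 in every line, EIF1 is lower in every line, EIF1AX varies in size and EIF2S1 in sign.

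The elongation genes were level or slightly lower. EEF1A1, which brings aminoacyl-tRNA to the ribosome, read 2686 with analogue 3 and 2828 with DMSO (-0.07), and 3 more bright probe sets gave -0.08, -0.12 and -0.13. A dim one read 41.9 against 62.5 (-0.58). All 5 were lower, but the bright ones are x_at probe sets near the top of the scale, and the many EEF1A1 pseudogenes leave their source uncertain. EEF1D, a subunit of the exchange factor for eEF1A, read 1186 with analogue 3 and 1228 with DMSO (-0.05). EEF2, the translocase, read 970.5 and 1135 (-0.23), and 873.9 against 993.5 in its second probe set (-0.19). EEF2K, the kinase that inhibits eEF2, was under the floor at 19.3 and 16.6. No elongation gene was past 1.5-fold in its brightest probe set.

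The release factors differed from each other. ETF1 encodes eRF1, which reads stop codons, and was level at 455.1 with analogue 3 and 487.5 with DMSO (-0.10), with -0.02 in its second probe set. GSPT1 encodes its GTPase partner eRF3a, and read 419.4 with analogue 3 and 311.4 with DMSO (0.43), with 194.6 against 146.1 (0.41) in its second probe set. Both GSPT1 probe sets were higher, by 1.35- and 1.33-fold, short of 1.5-fold.

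For 5 of the 51 genes no probe set with that symbol alone was listed: EEF1B2, EEF1E1, EEF1G, EIF4A1 and EIF4G3. EEF1B2, EEF1G and EIF4A1 occur among the symbols of probe sets that name several genes, and these were not assigned to any gene. The 5 genes under the floor on both arrays were EIF2B5, EIF3C, EIF4A2, EIF5A2 and EEF2K. A reading under the floor does not show that a gene was not expressed, and EIF3C and EIF4A2 rest on 1 single-gene probe set each. At the level of probe sets, 76 of the 125 reached the floor on at least 1 array. Of these, 11 were at least 1.5-fold higher (14.5%), beside 9.72% of all 6974 probe sets measured, and came from 6 genes, the 5 above and EIF1AX. At least 1.5-fold lower were 3 (3.95%), beside 8.57%, all from EIF1. At least 2-fold higher were 2 (2.63%), beside 3.28%, both from EIF5, and none was at least 2-fold lower, beside 2.39%. Probe sets of 1 gene share their transcript and are not separate measurements of the factors.

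Among regulators and cofactors of translation outside the set, 84 genes in 5 lists were examined, and 51 were measured. With the floor and by brightest probe set, none was at least 1.5-fold higher, beside 9.45% of all measured genes. At least 1.5-fold lower were 5 (9.80%, beside 9.13%), and 2 of those were at least 2-fold lower (3.92%, beside 2.67%), shares near the background, and the median over the 51 was 0.02. EIF4EBP1, which encodes the repressor that competes with eIF4G for eIF4E and is a known ATF4 target, read 113.5 with analogue 3 and 323.3 with DMSO, lower by 2.85-fold (-1.51). EIF4EBP1 and EIF4E thus stood on opposite sides of 0. MKNK2, a kinase of eIF4E, read 236.5 with analogue 3 and 402.3 with DMSO (-0.77). In the same list RPS6 read 2456 and 2598, LARP1 read 419.6 and 487.1, and the median over 7 measured genes was -0.22.

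On the eIF2 side, the interferon-inducible kinase EIF2AK2 (PKR) read 73.1 with analogue 3 and 116.5 with DMSO (-0.67), but 44.1 against 50.6 in its second probe set (-0.20). PPP1R15A, the stress-induced subunit of the eIF2 phosphatase, read 9.73 with analogue 3, under the floor, and 35.1 with DMSO, a bound of at least 1.10-fold lower. Its constitutive counterpart PPP1R15B read 43.6 and 51.2 (-0.23). EIF2AK3, the kinase PERK of the endoplasmic reticulum, read 29.6 with analogue 3, also under the floor, and 39.1 with DMSO, a bound of at least 1.22-fold lower. The phosphatase catalytic subunits PPP1CC, at 485.9 and 423.8, and PPP1CA, at 387.6 and 341.9, lay above 0 (0.20 and 0.18). The other catalytic subunit, PPP1CB, lay below it in its brightest probe set, at 211.9 with analogue 3 and 223.2 with DMSO (-0.07). Its other probe sets above the floor gave 0.17 and 0.03, so no direction is given for PPP1CB. The list's median over 9 genes was -0.13, with 1 gene at least 1.5-fold lower (11.1%, beside 9.13% of all measured genes). That median kept its sign under 7 of 10 processing alternatives and was 0.14 when the probe sets of a gene were summarised by their median.

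GSPT2, the eRF3b paralogue of GSPT1, read 56.5 with analogue 3 and 124.2 with DMSO, lower by 2.20-fold (-1.14), opposite in sign to GSPT1. SECISBP2, which directs selenocysteine to recoded stop codons, read 32.6 with analogue 3 and 49.9 with DMSO (-0.61). The elongation and release cofactors had a median of 0.04 over 11 genes, with TRMT112, a partner of the eRF1 methyltransferase, at 896.0 and 849.8 and TCF25 at 151.4 and 174.0. The poly(A)- and cap-binding and other initiation cofactors had a median of 0.12 over 17, with PABPC3 at 1254 with analogue 3 and 1258 with DMSO and its near-identical relative PABPC1 at 1178 and 1225, between which x_at probe sets cannot be assigned with certainty. Mitochondrial translation factors had a median of 0.10 over 7, with TUFM, the mitochondrial elongation factor, at 248.3 and 215.5 and C1QBP at 750.5 and 570.5. With the floor, no gene of the initiation cofactor list or of the mitochondrial list was past 1.5-fold in its brightest probe set. NCBP1 of the initiation cofactors read 43.4 with analogue 3 and 28.5 with DMSO, under the floor, a bound of at least 1.36-fold. A dimmer DDX3X probe set read 48.3 against 29.35, also under the floor with DMSO (0.72 without the floor), while the gene's brightest gave 0.06.

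**Figure D5:**
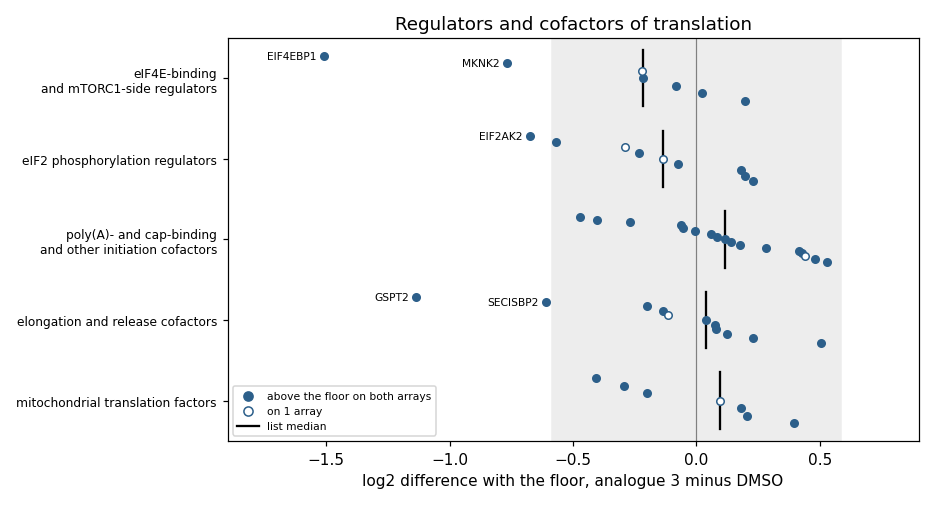
log2 difference with the floor, analogue 3 minus DMSO (horizontal axis), of 51 measured regulators and cofactors of translation in 5 lists. Filled points were above the floor on both arrays, open points on 1, bars are list medians and shading marks differences under 1.5-fold. EIF4EBP1 and GSPT2 are the points past 2-fold, both lower with analogue 3.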

How the data were processed

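RNA of 1 analogue 3 culture and 1 DMSO culture was hybridised to 1 Affymetrix U133 Plus 2.0 array each. The authors deposited linear intensity values, 1 column per array. They were made with GCRMA (no version given), per the submitters' processing notes. Both columns have a median of 1, which points to a scaling to the array median that no label states.

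Of 54675 probe sets, 41097 carried 1 symbol in GEO's platform annotation, 1801 several and 11777 were not listed. Symbols of all 46 factors matched RefSeq. Intensities were log2-transformed, raised to a floor of log2 5 (32) and subtracted. Promoters came from RefSeq (GRCh38.p14). Python 3.11.15, numpy 2.4.6, pandas 2.3.3 and statsmodels 0.14.6 were used, and the steps were tested on simulated data. The number of arrays limits the precision.

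Named with values were all genes past 1.5-fold, up to 4 more of each complex by level, all genes under the floor, and genes whose probe sets differ in sign or by over 0.5. Other members named, and the motifs, were chosen after values were seen. Of each related list, genes past 2-fold and up to 2 by level were named, and others were chosen after their values were seen. The members and lists were chosen with earlier results of these data known.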

Additional observations from a re-analysis of the deposited data

How the results depend on the processing

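The counts of factors past 2-fold stayed at 0 each way under all 10 alternatives (floors of log2 1, 4 and 7, no floor, median centring, loess removal with span 0.3, quantile normalization, a median over probe sets per gene, leaving out _s_at and _x_at probe sets, and the mean over probe sets above the floor). A limit of 3-fold also gives 0, by its construction. The count at least 1.5-fold higher, 5, was 2 of 34 genes with a floor of log2 7 (EIF5 and EIF5A), beside 7.6% of all genes measured so. It was 2 of 20 without _s_at and _x_at probe sets, beside 9.13%. These 2 were EIF2B3 and EIF1AX, and EIF1AX, at 0.74 there, is not 1 of the 5. The count at least 1.5-fold lower, 0, was 2 of 32 with the median over probe sets (EIF1 and EIF2S2), beside 8.21% of all genes measured so. With the mean over probe sets it was 1 of 41 (EIF1), beside 8.42%. The EIF2S2 call mixes in a probe set under the floor, at 7.59 with analogue 3 and 13.9 with DMSO. With a floor of log2 7 the medians were -0.41 for eIF2B (1 gene), 0.16 for the eIF4F group, 0.65 for the eIF5 group (3 genes) and 0.053 for the eIF2 phosphorylation regulators (4 genes). With a floor of log2 1 or none, the eIF5 group had 0.11 over 5 genes, since EIF5A2 then counts. With the median over probe sets, the release factors had -0.061 (1 gene), the eIF4E-binding and mTORC1-side list -0.49 (4 genes) and the eIF2 phosphorylation regulators 0.14 (6 genes), and the mean over probe sets gave the last 0.0399 (7 genes). Without _s_at and _x_at probe sets the eIF1 group had 0.19 (2 genes), the elongation genes -0.58 (1 gene) and the release factors -0.10 (1 gene). In that setting no gene of the eIF5 group was measured, so the group has no median there. Fewer factors enter with a floor of log2 7, with the median over probe sets and without _s_at and _x_at probe sets, and more enter with lower floors or none. The other 162 of 179 recomputed counts and medians moved by less than the SD of 1 probe set, or by less than 1.5 times for counts, and the all-factor median ran from -0.05 to 0.07. The medians of all factors, of the eIF1, eIF2B, eIF3 and release groups, and of the eIF2 phosphorylation, elongation and release cofactor, and mitochondrial lists each changed sign under at least 1 alternative. Of single factors past 1.5-fold, EIF4E lost that call under 3 of 10 alternatives and EIF4E2 under 4 of 8. In each of those 3 the EIF4E value was a bound, since its DMSO reading was raised to the floor. EEF1D, level in its brightest probe set, read 0.81 with the median over probe sets, a value that mixes in probe sets under the floor on both arrays. No paired analysis was possible because each group has 1 array.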

Other observations

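Probe sets that name a factor beside other genes entered no comparison. There were 13, of which 10 reached the floor, and their log2 differences lay between -0.06 and 0.14, with none past 2-fold. The highest reading among the remaining 3 was 9.28.

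Under the floor, some further probe sets of the factors had large ratios at low readings, which are given as readings only. A dim EEF1D probe set read 13.5 with analogue 3 and 4.21 with DMSO, 1 of EIF3F read 3.21 and 8.48, and 1 of EIF1 read 5.22 and 10.1.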
